A study of Solanum lycopersicum with 8 samples.

Results

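The comparison sets anther against young leaf in unheated wild type (WT) tomato, Solanum lycopersicum cv Moneymaker, over every gene listed in the deposited tables. It rests on 2 of the 8 libraries of the study, the WT control anther library and the WT control leaf library, with 29345 listed genes in each. Plants were 8 weeks old and grew in a glasshouse with 16 h days at 24 °C and 8 h nights at 20 °C, and anthers of different stages were collected, per the labels. The assay was MACE, massive analysis of cDNA ends, in which each polyadenylated transcript is represented by a read from its 3′ end. The other 6 libraries came from anther and leaf of A2AS control, WT heat and A2AS heat plants. A2AS is the other genotype of the study, known from it as transgenic plants made to suppress HsfA2, a step the labels do not describe. The level of HsfA2 was lower in A2AS than in WT in 3 of the 4 pairs of like libraries, and it went against that description in the library labelled A2AS heat anther, at 39.3 CPM, against 22.3 CPM in WT heat anther. Heat lasted 1 h at 39 °C and was followed by 1.5 h of recovery at 24 °C. How the control plants were handled while others were heated is not described in the labels.

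An anther is the pollen-bearing part of the stamen. Its identity is set by MADS-box transcription factors, its innermost wall layer, the tapetum, feeds the developing pollen, and its sugar is imported from leaves. A young leaf is built around photosynthetic mesophyll, whose chloroplasts hold the light-harvesting complexes, the photosystems and the Calvin cycle. Heat shock proteins are chaperones that both organs make under heat and that anthers are also known to make during development.

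Levels are given in CPM, reads per 1000000 of a library, with no gene length term, so levels are compared between tissues within a gene. The anther library held 12411606 reads and the leaf library 11534512, and the libraries of the series ranged from 6243965 to 14764187. Each group had 1 library, so a difference within the pair has no replicate check and no p-value. Ranges in brackets after a fold are exact 95% intervals of counting error only. Log2 ratios were taken as log2 of (anther CPM + 1) over (leaf CPM + 1), which understates the difference of low genes, whereas folds are ratios of the CPM values. Counts of genes at least 2-fold higher or lower were made on the log2 ratios, so a low gene such as LIN6 can pass 2-fold in CPM and not be counted. As tissues are mixtures of cells, fewer cells of a type and less RNA per cell cannot be told apart.

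Anther and leaf differed at 2-fold or more in 3581 of the 9289 genes that averaged 10 CPM or more over the 2 libraries. Of these, 1782 genes were higher in anther (19.2%) and 1799 were lower (19.4%), and 5708 differed by less. The counts of moderate differences were nearly even, but the wide ones were not. At 16-fold or more, 397 genes were higher in anther and 148 were lower, and at 64-fold or more, 91 were higher and 9 were lower. The 1782 higher genes held 29.8% of the anther library, against 4.63% of the leaf library, and the 1799 lower genes held 6.65% of the anther library, against 37.0% of the leaf library. All listed genes together held 69.2% of the anther library and 72.5% of the leaf library, so the rest of each lay in no listed gene. Without the minimum, 13.6% of all 29345 genes were at least 2-fold higher and 10.7% at least 2-fold lower on the log2(CPM + 1) scale. The gene lists below are read against those 2 shares, because all measured members were counted.

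A set of 181 genes had at least 10 CPM in anther and no more than 3 reads in leaf, and 33 genes showed the opposite. Of the 181 genes, 46 were at 0 in leaf, and of the 33, 4 were at 0 in anther. The median log2 ratio was 0.11 over the genes at the minimum and 0.01 over all genes. Scaling the 2 libraries by the median ratio of their genes moved the first median to -0.04, and the counts became 1488 higher and 2029 lower, so differences near 2-fold depend on the scaling.

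**Figure D1:**
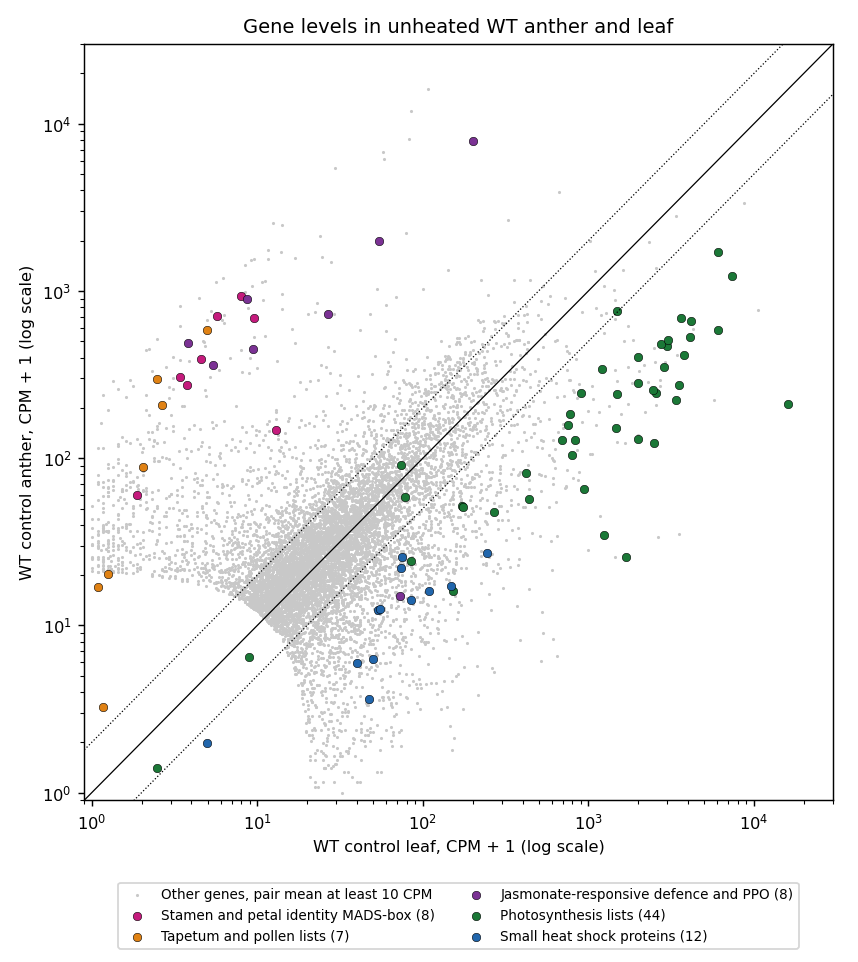
Levels in WT control anther (vertical axis) and WT control leaf (horizontal axis) as CPM + 1 on log scales, 1 point per gene, with 6 kinds of gene by colour and lines at equality and at 2-fold. The 8 MADS-box genes, 7 tapetum and pollen genes and 7 of the 8 defence genes lie above the upper line, and 39 of the 44 photosynthesis genes and all 12 small heat shock protein genes lie below the lower one.

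The identity genes of stamen and petal were all higher in anther. All 8 MADS-box genes listed were at least 12.3-fold higher in anther, with a median log2 ratio of 6.31. The class B gene DEF (Solyc04g081000), the tomato APETALA3 ortholog also called TAP3, was at 936 CPM in anther, against 6.94 CPM in leaf, which is 135-fold higher in anther (108 to 170.3). The PISTILLATA-type genes Solyc08g067230 and TPI (Solyc06g059970), which encode the partners of the APETALA3-type proteins, were at 709.5 against 4.68 CPM and 687 against 8.58 CPM, anther against leaf. Each of these class B genes stayed under 10 CPM in leaf. TM6 (Solyc02g084630), the other APETALA3-type gene, had the narrowest difference, with 146 CPM in anther, against 11.9 CPM in leaf.

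The class C and class E genes, which act with class B in stamens, were on the same side. AG1 (Solyc02g071730), the class C gene of stamen and carpel identity, had 305 CPM in anther, against 2.43 CPM in leaf, and TAGL1 (Solyc07g055920), its close relative, had 59.3 CPM in anther, against 0.867 CPM in leaf. The SEPALLATA-type genes TM5 (Solyc05g015750) and TM29 (Solyc02g089200), whose proteins join the others in complexes, had 274 against 2.77 CPM and 389.7 against 3.55 CPM, anther against leaf. TAGL11, an ovule identity gene, stayed at 0.203 CPM in anther and 0.173 CPM in leaf, and MC, a gene of sepal and inflorescence development, at 0.886 and 0.0867 CPM, so neither marker of another floral organ reached 1 CPM in the anther library.

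Regulators of the tapetum were all at least 2-fold higher in anther, 4 of 4, with a median log2 ratio of 4.72. MS10 (Solyc02g079810) and MS32 (Solyc01g081100), basic helix-loop-helix factors whose loss makes tomato male sterile, were at 16 against 0.0867 CPM and 19.2 against 0.26 CPM, anther against leaf, and the leaf values rest on 1 and 3 reads. TDF1 (Solyc03g113530), an MYB factor of tapetum development, was at 88.1 CPM in anther, against 1.04 CPM in leaf. AMS (Solyc08g062780), the tomato counterpart of ABORTED MICROSPORES, was at 206 CPM in anther, against 1.65 CPM in leaf. Across the series AMS had 206, 158, 251 and 174 CPM in the anther libraries of the WT control, A2AS control, WT heat and A2AS heat pairs, against 1.65, 2.03, 2.81 and 1.44 CPM in the leaf libraries. Every anther value of AMS lay above every leaf value. In limma, over all 4 tissue pairs, AMS differed by 6.06 ± 0.16 on the log2(CPM + 1) scale (SE, adjusted p = 8.40e-08), higher in anther in 4 of 4 pairs. AMS had the widest ratio of the 4 regulators in the WT control pair, which is among these values and in the fit.

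Genes of pollen and of the anther wall were also measured. LAT52 (Solyc10g007270), a pollen-specific gene of tomato, was at 295 CPM in anther, against 1.47 CPM in leaf, which is 200.2-fold higher in anther (125 to 344). Solyc07g053460, listed as an anther wall protease with a name that could not be matched, was at 584 CPM in anther, against 3.99 CPM in leaf. PS-2 (Solyc04g015530), a polygalacturonase gene of anther opening, was at only 2.26 CPM in anther, against 0.173 CPM in leaf. Apart from PS-2, the markers of stamen, tapetum and pollen had at least 16.0 CPM in the library labelled anther and at most 11.9 CPM in the library labelled leaf.

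Photosynthesis genes were nearly all on the leaf side. The 44 genes of the 5 photosynthesis lists held 1.28% of the anther library, against 9.94% of the leaf library. Counted singly, 39 were at least 2-fold lower in anther and none was at least 2-fold higher. The 5 lists had median log2 ratios between -3.11 and -1.83. Photosynthesis genes were not absent from anther, where for example CAB4 (Solyc07g047850), a light-harvesting antenna gene, was at 1219.8 CPM in anther, against 7367 CPM in leaf.

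Among the carbon-fixing genes the difference depended on the copy. The Rubisco small subunit gene Solyc02g085950 had 209 CPM in anther, against 16047 CPM in leaf, which is 76.6-fold lower in anther (73.7 to 79.7). Its paralogs RBCS-2A (Solyc03g034220) and rbcS1 (Solyc02g063150) had 1709 against 6065 CPM and 762 against 1480.3 CPM, anther against leaf, 3.55-fold and 1.94-fold lower. How reads shared by near-identical copies were counted is not stated, so the values of single copies are less certain than their sum, 2680 CPM in anther against 23593 CPM in leaf. The Rubisco activase genes Solyc10g086580 and Solyc09g011080, whose product keeps Rubisco active, were 7.86-fold and 10.2-fold lower in anther.

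Of 20 chlorophyll a/b-binding protein genes, which encode the antenna, 18 were at least 2-fold lower in anther and none was at least 2-fold higher. Their median log2 ratio was -2.66 and their summed level was 5933 CPM in anther, against 47140 CPM in leaf. The widest difference was in Solyc03g005780, with 33.5 CPM in anther, against 1244 CPM in leaf, next to Solyc03g005760 with 531 against 4111 CPM, anther against leaf. The 10 genes of the photosystems and electron transport were lower in anther in every case, between 3.68-fold and 9.61-fold. PsbS (Solyc06g060340), which carries out photoprotective quenching, had the narrowest difference, and the photosystem I gene Solyc07g066150 (PsaG) the widest.

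Calvin cycle and photorespiration genes were at least 2-fold lower in anther in 7 of 9 cases. The carbonic anhydrase gene ca3 (Solyc02g086820) had 24.6 CPM in anther, against 1678 CPM in leaf, 68.3-fold lower in anther (61 to 76.7), whereas the other carbonic anhydrase gene, CA1 (Solyc05g005490), had 89.6 CPM in anther, against 73.3 CPM in leaf. A glycolate oxidase gene, GOX1 (Solyc07g056540), which acts in photorespiration, was at 123 CPM in anther, against 2473 CPM in leaf, but its paralog GOX2 (Solyc10g007600) was at 57.5 CPM in anther, against 76.8 CPM in leaf. In both families, then, a paralog at less than 2-fold stood beside a copy of wide difference in the WT control pair. Elsewhere this varied, as CA1 had log2 ratios of -0.80, -0.68 and -2.33 in the A2AS control, WT heat and A2AS heat pairs. GOX2 had -1.03 in the A2AS control pair. In the A2AS heat pair all 9 genes were at least 2-fold lower, where 14.8% of genes at the minimum were. SBPASE (Solyc05g052600) and the PRK gene (Solyc08g076220), 2 enzymes particular to the Calvin cycle, were 7.71-fold and 9.77-fold lower in anther. CAT2 (Solyc02g082760), a catalase gene counted with the antioxidant enzymes, was at 106 CPM in anther, against 1055 CPM in leaf.

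**Figure D2:**
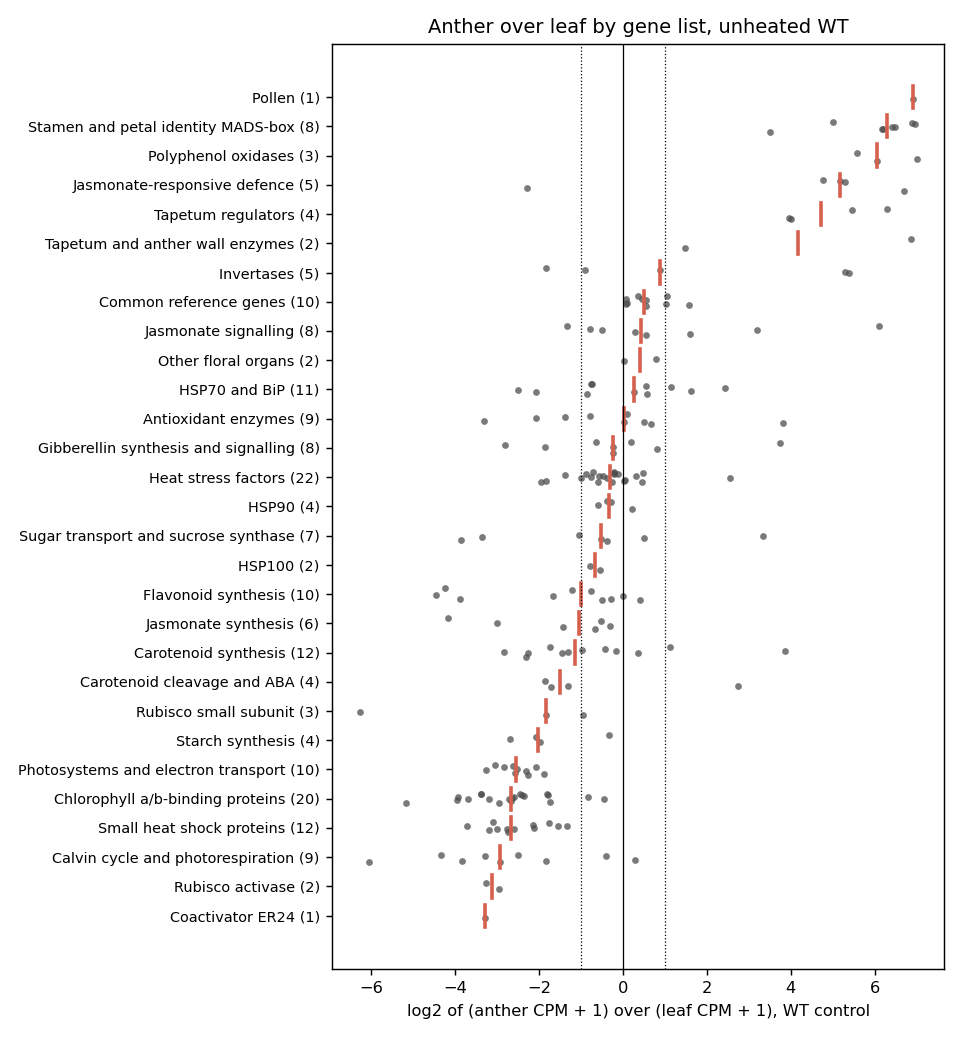
Log2 of (anther CPM + 1) over (leaf CPM + 1) in the WT control pair for the 204 measured members of 29 lists, 1 point per gene, with the list median as a red bar and the number of members in brackets; dotted lines mark 2-fold. Lists of floral identity, tapetum, pollen and defence have medians above 4, and the photosynthesis lists, small heat shock proteins and ER24 have medians between -3.27 and -1.83.

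Sugar import and storage genes split by organ. Cell wall invertases cleave imported sucrose outside the cell. The gene lin5 (Solyc09g010080) had 51.8 CPM in anther, against 0.347 CPM in leaf from 4 reads, and LIN7 (Solyc09g010090) had 99.5 CPM in anther, against 1.39 CPM in leaf. The other cell wall members were lower in anther, as LIN6 (Solyc10g083290) had 3.14 CPM in anther, against 6.68 CPM in leaf and LIN8 (Solyc10g083300) had 0.524 CPM in anther, against 4.42 CPM in leaf. TIV1 (Solyc03g083910), the vacuolar invertase, was 1.88-fold higher in anther, so 2 of 5 invertase genes were at least 2-fold higher and 1 was at least 2-fold lower. The ratio of LIN7 was narrower in every other pair, with 99.5, 48.9, 20 and 53.4 CPM in the anther libraries of the WT control, A2AS control, WT heat and A2AS heat pairs, against 1.39, 2.46, 1.88 and 0.961 CPM in the leaf libraries.

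Of 7 genes of sugar transport and sucrose synthase, 1 was at least 2-fold higher in anther and 3 at least 2-fold lower. HT1 (Solyc02g079220), a hexose transporter, was at 9.99 CPM in anther, against 159 CPM in leaf, and SUT1 (Solyc11g017010), the sucrose transporter that loads phloem, was at 1.53 CPM in anther, against 24.8 CPM in leaf. SUS1 (Solyc12g009300), a sucrose synthase gene, was the higher one, with 12.6 CPM in anther, against 0.347 CPM in leaf, where the leaf value rests on 4 reads. Of 4 starch synthesis genes, 3 were at least 2-fold lower in anther. AGPS1 (Solyc07g056140), the small subunit of ADP-glucose pyrophosphorylase, was at 94.9 CPM in anther, against 619 CPM in leaf, and GBSS1 (Solyc08g083320), the granule-bound starch synthase, at 125 CPM in anther, against 528 CPM in leaf. The large subunit gene AgpL1 (Solyc01g109790) was 4.0-fold lower in the pair but had 56.6, 75, 62.3 and 77.3 CPM in the anther libraries of the WT control, A2AS control, WT heat and A2AS heat pairs, against 226, 86.9, 163 and 42.3 CPM in the leaf libraries, and limma gave -0.68 ± 0.40 on the log2(CPM + 1) scale (SE, adjusted p = 0.163), which did not pass. Leaving out the A2AS heat pair brought that adjusted p to 0.0107.

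Flavonoids are pigments and protectants built from phenylalanine in a series of steps. Of 10 flavonoid genes, 5 were at least 2-fold lower in anther and none was at least 2-fold higher, with a median log2 ratio of -0.99. Among the early genes, CHS1 (Solyc09g091510) and CHS2 (Solyc05g053550), the chalcone synthase genes, had lower levels in anther by less than 2-fold. CHS1 had 197 CPM in anther, against 334 CPM in leaf, and CHS2 had 794 CPM in anther, against 1111 CPM in leaf. F3H (Solyc02g083860), flavanone 3-hydroxylase, had 505 CPM in anther, against 378 CPM in leaf, 1.34-fold higher in anther (1.28 to 1.39). FLS (Solyc11g013110), flavonol synthase, had 202 CPM in anther, against 245 CPM in leaf, and MYB12 (Solyc01g079620), the activator of flavonol genes, had 16.8 CPM in anther, against 16.6 CPM in leaf. CHI1 (Solyc05g010320), chalcone isomerase, was at 68.9 CPM in anther, against 222 CPM in leaf, 3.22-fold lower in anther (2.98 to 3.49). F3'H (Solyc03g115220), flavonoid 3'-hydroxylase, was at 26.7 CPM in anther, against 63.5 CPM in leaf, 2.38-fold lower in anther (2.09 to 2.72). The anthocyanin branch had much lower levels in anther. DFR (Solyc02g085020), dihydroflavonol reductase, was at 3.38 CPM in anther, against 81.1 CPM in leaf, and ANS (Solyc08g080040), anthocyanidin synthase, at 3.22 CPM in anther, against 91.6 CPM in leaf, 28.4-fold lower in anther (20.7 to 40). F3'5'H (Solyc11g066580), the hydroxylase of delphinidin-type anthocyanins, was at 0.242 CPM in anther, against 17.3 CPM in leaf, where the anther value rests on 3 reads.

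DFR and ANS were lower in anther in all 4 pairs. DFR had 3.38, 2.44, 3.72 and 2.88 CPM in the anther libraries of the WT control, A2AS control, WT heat and A2AS heat pairs, against 81.1, 45.8, 40.8 and 12.3 CPM in the leaf libraries. Every anther value of DFR lay below every leaf value, and limma gave -3.23 ± 0.35 on the log2(CPM + 1) scale (SE, adjusted p = 5.53e-05). DFR was named for its wide ratio in the WT control pair, which is among these values and in the fit. CHS2 had 794, 633, 950.0 and 920.4 CPM in the anther libraries of the WT control, A2AS control, WT heat and A2AS heat pairs, against 1111, 512, 808 and 324 CPM in the leaf libraries, so its anther and leaf values overlapped.

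Carotenoid genes split in a comparable way. Of 12 genes, 6 were at least 2-fold lower in anther and 2 at least 2-fold higher. CrtR-b2 (Solyc03g007960), the beta-carotene hydroxylase known from tomato flowers, was at 90.1 CPM in anther, against 5.25 CPM in leaf, 17.2-fold higher in anther (13.4 to 22.8), while CrtR-b1 (Solyc06g036260), the hydroxylase of green tissue, was at 34.1 CPM in anther, against 86.2 CPM in leaf. Cyc-B (Solyc06g074240), the chromoplast lycopene cyclase, was at 4.91 CPM in anther, against 1.73 CPM in leaf, and LCY1 (Solyc04g040190), the cyclase of leaves, was at 25.1 CPM in anther, against 123 CPM in leaf. In both steps the paralog of coloured organs was higher in anther and the paralog of green tissue was lower. Psy1 (Solyc03g031860), the phytoene synthase known from fruit, was at 46.6 CPM in anther, against 62.5 CPM in leaf, and PSY2 (Solyc02g081330) was at 24.2 CPM in anther, against 123 CPM in leaf. ZEP (Solyc02g090890) and VDE (Solyc04g050930), enzymes of the xanthophyll cycle, were 7.22-fold and 3.43-fold lower in anther.

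**Figure D3:**
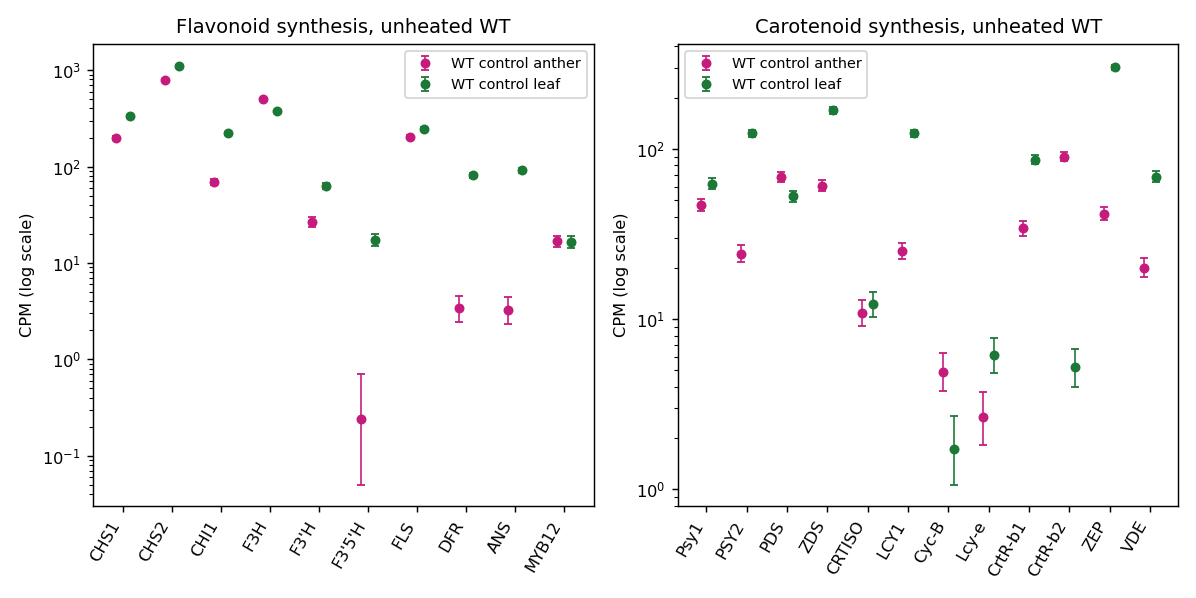
Levels of the 10 flavonoid genes and 12 carotenoid genes in WT control anther (left point of each gene) and WT control leaf (right point), in CPM on log scales, with exact 95% counting intervals as bars. F3'5'H, DFR and ANS have the widest gaps among flavonoid genes, and CrtR-b2 and Cyc-B are the 2 carotenoid genes at least 2-fold higher in anther.

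Carotenoid cleavage was lower in anther in 3 of 4 genes. CCD1A and CCD1B (Solyc01g087250 and Solyc01g087260), dioxygenases of volatile formation, were 2.56-fold and 3.65-fold lower in anther, and NCED1 (Solyc07g056570), which makes the precursor of abscisic acid, was at 0.483 CPM in anther, against 3.81 CPM in leaf. The CCD4A gene (Solyc08g075480), a dioxygenase that breaks down carotenoids, was the exception, with 7.45 CPM in anther, against 0.26 CPM in leaf, where the leaf value rests on 3 reads.

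Jasmonate genes gave opposite pictures for synthesis and for outputs. Of 6 synthesis genes, 3 were at least 2-fold lower in anther and none higher, led by JAR1 (Solyc10g011660), which forms the active isoleucine conjugate, at 2.72 CPM in anther, against 65.3 CPM in leaf. AOS2 (Solyc11g069800), allene oxide synthase, was at 5.64 CPM in anther, against 52.1 CPM in leaf, and loxD (Solyc03g122340), the lipoxygenase of the first step, at 19.2 CPM in anther, against 53 CPM in leaf. AOC (Solyc02g085730), allene oxide cyclase, and OPR3 (Solyc07g007870), the reductase of a later step, were 1.58-fold and 1.24-fold lower. COI1 (Solyc05g052620), the receptor, was at 16.3 CPM in anther, against 23.3 CPM in leaf.

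Signalling genes were mixed, with 3 of 8 at least 2-fold higher in anther and 1 at least 2-fold lower. MYB21 (Solyc02g067760), an MYB factor of flower maturation that jasmonate acts through, was at 85.8 CPM in anther, against 0.26 CPM in leaf, where the leaf value rests on 3 reads. The repressor genes JAZ4 (Solyc12g049400) and JAZ1 (Solyc07g042170) were at 43.6 against 3.9 CPM and 279 against 90.7 CPM, anther against leaf. MYC1 (Solyc08g005050), a basic helix-loop-helix factor, was lower in anther, at 14.3 CPM in anther, against 37.1 CPM in leaf.

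Defence genes known to be induced by jasmonate and wounding in leaves were mostly far higher in anther. Of 5, 4 were at least 2-fold higher in anther, with a median log2 ratio of 5.18. TD2 (Solyc09g008670), a threonine deaminase that degrades threonine in the gut of insects, was at 7922 CPM in anther, against 200.3 CPM in leaf, 39.6-fold higher in anther (38 to 41.2). The protease inhibitor genes PI-II (Solyc03g020080) and PI-I (Solyc09g084470) were at 898 against 7.63 CPM and 1982 against 53.6 CPM, anther against leaf, and LAPA1 (Solyc12g010020), a leucine aminopeptidase, was at 730.1 CPM in anther, against 25.7 CPM in leaf. ARG2 (Solyc01g091170), an arginase, was the member lower in anther, at 14.1 CPM in anther, against 71.7 CPM in leaf. TD2 had 7922, 6140.4, 7321 and 6548 CPM in the anther libraries of the WT control, A2AS control, WT heat and A2AS heat pairs, against 200.3, 137, 130.3 and 116 CPM in the leaf libraries. The lowest anther value of TD2 was far above the highest leaf value, and limma gave 5.60 ± 0.18 on the log2(CPM + 1) scale (SE, adjusted p = 1.38e-07). TD2 was named for its wide ratio in the WT control pair, which is among these values and in the fit.

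The polyphenol oxidases, enzymes that brown wounded tissue, were alike. All 3 measured genes of 5 listed were higher in anther, with Solyc08g074630 at 487 CPM in anther, against 2.82 CPM in leaf, Solyc08g074620 at 451 CPM in anther, against 8.45 CPM in leaf and Solyc08g074680 at 359 CPM in anther, against 4.42 CPM in leaf. Their IDs are close neighbours and their copies are similar, so single values are less certain than their sum, 1298 CPM in anther against 15.7 CPM in leaf.

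Gibberellin genes were mostly low, with 1 of 8 at least 2-fold higher in anther and 2 at least 2-fold lower. GAST1 (Solyc02g089350), a gibberellin-stimulated transcript, was at 919.8 CPM in anther, against 67.6 CPM in leaf, and GA20OX1 (Solyc03g006880), a biosynthetic oxidase, at 0.645 CPM in anther, against 10.4 CPM in leaf. PROCERA (Solyc11g011260), the DELLA repressor, was at 13.2 CPM in anther, against 15.6 CPM in leaf. The receptor gene GID1ac (Solyc01g098390) was at 3.06 CPM in anther, against 13.8 CPM in leaf.

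The small heat shock protein genes, among the most heat-inducible chaperone genes of plants, were lower in the unheated anther library. All 12 were at least 2-fold lower in anther, with a median log2 ratio of -2.67 and a summed level of 153 CPM in anther, against 972 CPM in leaf. The widest differences were in Solyc09g015020, of the cytosolic class, at 2.62 CPM in anther, against 46.5 CPM in leaf, and HSP21 (Solyc03g082420), the plastid protein, at 25.9 CPM in anther, against 242 CPM in leaf. ER24 (Solyc01g104740), a coactivator of the MBF1 family, was at 5.88 CPM in anther, against 65.5 CPM in leaf, and HsfA2 (Solyc08g062960), the heat stress factor for which A2AS plants are named, at 1.93 CPM in anther, against 10.3 CPM in leaf. In the other like libraries HsfA2 was at 1.08 CPM in A2AS, against 1.93 CPM in WT, in control anther, at 2.25 CPM in A2AS, against 10.3 CPM in WT, in control leaf, and at 2.72 CPM in A2AS, against 21.7 CPM in WT, in heat leaf.

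In the A2AS control pair, which shares no library with the WT pair, the small heat shock protein genes gave a median log2 ratio of 0.16. There 1 of the 12 was at least 2-fold higher in anther and none was at least 2-fold lower, where 16.4% of all genes were higher and 9.11% lower by the same count. HSP21 had 25.9, 24.2, 1327 and 1393 CPM in the anther libraries of the WT control, A2AS control, WT heat and A2AS heat pairs, against 242, 25.8, 4221 and 741 CPM in the leaf libraries. Its anther level was nearly the same in both control pairs, whereas its level in control leaf was 25.8 CPM in A2AS, against 242 CPM in WT. Solyc09g015020 had 2.62, 4.0, 426 and 385 CPM in the anther libraries of the WT control, A2AS control, WT heat and A2AS heat pairs, against 46.5, 3.41, 216 and 84.7 CPM in the leaf libraries, and ER24 had 5.88, 4.4, 92.7 and 246 CPM in the anther libraries of the WT control, A2AS control, WT heat and A2AS heat pairs, against 65.5, 5.44, 32 and 13 CPM in the leaf libraries. For both genes, and for HSP21, the highest value among the 4 control libraries is that of WT leaf. What set the level of that library was not tested. In the WT heat pair HSP21 was again lower in anther, while Solyc09g015020 and ER24 were higher there. In limma, 1 of the 12, vis1 (Solyc05g014280), was called lower in anther over the 4 pairs and none higher, where 23.6% of all genes tested were called lower and 41.6% higher. Limma called 0 of the 12 for a tissue difference that differs between genotypes, and 0% of all genes tested. In that test a tissue difference that changes with heat adds to the error. The lack of calls therefore does not show that the ratios are alike in both genotypes. At an unadjusted p below 0.05 were 2 of the 12, against 2929 of all 15220 genes tested. With the tissue-and-treatment pair as the block, added after the data were seen, limma called 2 of the 12. Over all 15220 genes that block gave 306 calls for a larger ratio and 158 for a smaller one. For a tissue difference that differs between heat and control limma called 0 of the 12. At an unadjusted p below 0.05 were 10 of the 12, against 872 of all 15220 genes. With the tissue-and-genotype pair as the block, likewise added, limma called 4 of the 12. Over all 15220 genes that block gave 55 calls for a larger ratio and 90 for a smaller one.

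**Figure D4:**
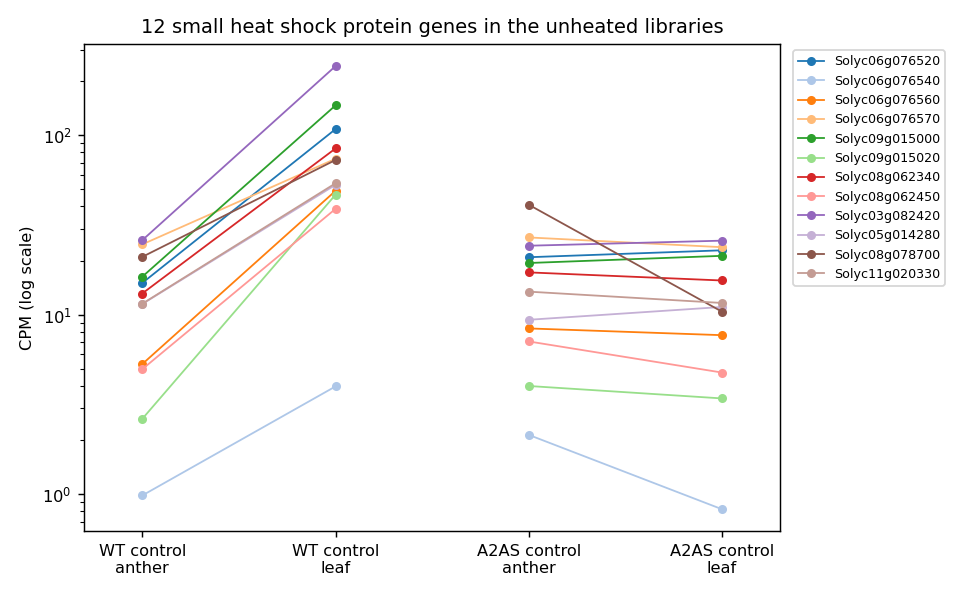
Levels of the 12 small heat shock protein genes in the WT control anther, WT control leaf, A2AS control anther and A2AS control leaf libraries, in CPM on a log scale, with a line joining the 2 tissues of a genotype. All 12 lines climb towards WT control leaf, and in A2AS the sole gene at least 2-fold different on the log2(CPM + 1) scale is Solyc08g078700, at 40.9 against 10.4 CPM, anther against leaf, while the low gene Solyc06g076540, at 2.13 against 0.821 CPM, passes 2-fold in CPM alone.

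Larger chaperones mostly differed less in the WT control pair. In the family of 11 HSP70 and BiP genes, a 2-fold or wider difference was found in 5, with 3 higher in anther and 2 lower. The widest was that of the HSP70 gene Solyc03g117630, lower in anther at a log2 ratio of -2.49, near the median of the small heat shock protein genes. Over all 4 pairs limma gave it 0.42 ± 0.63 on the log2(CPM + 1) scale (SE, adjusted p = 0.576), which did not pass. BiP/grp78 (Solyc08g082820), the HSP70 of the endoplasmic reticulum, was at 331 CPM in anther, against 60.8 CPM in leaf, and Solyc03g082920, of the same family, at 277 CPM in anther, against 125 CPM in leaf. BiP/grp78 had 331, 324, 253 and 251 CPM in the anther libraries of the WT control, A2AS control, WT heat and A2AS heat pairs, against 60.8, 72.3, 67.1 and 72.9 CPM in the leaf libraries, and limma gave 2.06 ± 0.17 on the log2(CPM + 1) scale (SE, adjusted p = 1.00e-05). The anther values of BiP/grp78 did not overlap the leaf values. It was named for its wide ratio in the WT control pair, which is among these values and in the fit. None of 4 HSP90 genes and neither of the HSP100 genes differed by 2-fold in the pair. HSP101 (Solyc03g115230), a cytosolic disaggregase, was at 29.4 CPM in anther, against 43.4 CPM in leaf. In the A2AS control pair the medians were 1.84 for HSP90 and 0.76 for HSP100, against -0.34 and -0.67 in the WT control pair. Limma called none of the HSP70, BiP, HSP90 and HSP100 genes for a tissue difference that differs between genotypes, with heat effects in its error. With the added block it called 4 of 10 HSP70 and BiP genes, 0 of 4 HSP90 genes and 1 of 2 HSP100 genes. Over all 15220 genes tested that block gave 306 calls for a larger ratio in A2AS and 158 for a smaller one.

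Heat stress factor genes mostly differed by less than 2-fold, with 1 of 22 at least 2-fold higher in anther and 3 at least 2-fold lower. HsfB3a (Solyc04g016000) was at 13.2 CPM in anther, against 1.44 CPM in leaf, HSFA3 (Solyc09g009100) at 10.2 CPM in anther, against 38.8 CPM in leaf and HSFA1A (Solyc08g005170), a master regulator of the tomato heat response, at 21.8 CPM in anther, against 26 CPM in leaf. HsfA4b (Solyc07g055710) was the other lower member, at 0.322 CPM in anther, against 2.43 CPM in leaf.

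Antioxidant enzymes remove reactive oxygen species, and their genes were mixed. Of 9 antioxidant genes, 1 was at least 2-fold higher in anther and 3 at least 2-fold lower, and the median of 0.02 changed sign to -0.13 with median-ratio scaling. CAT3 (Solyc04g082460) was at 61.1 CPM in anther, against 3.38 CPM in leaf, whereas cat1 (Solyc12g094620) was at 35.6 CPM in anther, against 151 CPM in leaf, so the catalase genes took opposite sides. FESOD (Solyc06g048410), an iron superoxide dismutase, was at 75.6 CPM in anther, against 198 CPM in leaf. Of 10 common reference genes, 3 were at least 2-fold higher in anther, with a median log2 ratio of 0.50, and ubi3 (Solyc01g056940), a ubiquitin gene, was at 654 CPM in anther, against 219 CPM in leaf. With median-ratio scaling that count was 1 and the median 0.35. ACT (Solyc03g078400), an actin gene, was at 411 CPM in anther, against 383 CPM in leaf.

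Genes in no list gave the ends of the range. Solyc06g069220 was at 813 CPM in anther, against 2.43 CPM in leaf, and Solyc02g078050 at 287 CPM in anther, against 0.347 CPM in leaf, the leaf value being 4 reads. At the other end, Solyc04g007790 was at 34.4 CPM in anther, against 3528 CPM in leaf, and Solyc08g082120 at 5.56 CPM in anther, against 649 CPM in leaf. The deposited tables give no name for them. Both anther-side genes were lower in the heat anther libraries than in the control anther libraries, and Solyc02g078050 had 287, 70.17, 29.6 and 23.8 CPM in the anther libraries of the WT control, A2AS control, WT heat and A2AS heat pairs, against 0.347, 0.435, 1.88 and 0.801 CPM in the leaf libraries.

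Neighbouring genes were compared in the order of their IDs. Of genes at least 2-fold higher in anther, 23.9% were followed by another such gene. Of all 9276 genes at the minimum with a next gene on the same chromosome, 19.1% were followed by one. Of genes at least 2-fold lower, 22.8% were followed by another, against 19.4% of those 9276. There were 17 runs of 5 or more in this order. The longest on the leaf side was a run of 8 genes on chromosome 2 from Solyc02g070940 to Solyc02g071030, which includes 4 listed chlorophyll a/b-binding protein genes and summed to 1690 CPM in anther, against 11531 CPM in leaf. The longest on the anther side was a run of 10 genes on chromosome 9 from Solyc09g084440 to Solyc09g089530, which includes PI-I and summed to 8310 CPM in anther, against 421 CPM in leaf. How reads that match several copies of a gene were counted is not stated in the sources used here.

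Most of the WT control differences recurred in the 3 pairs that share no library with it. Of the 1782 genes higher in anther, 1623 were at least 2-fold higher in the A2AS control pair, 1357 in the WT heat pair and 1495 in the A2AS heat pair, and 1195 (67.1%) in all 3. Of the 1799 genes lower in anther, 1372, 1479 and 1204 were at least 2-fold lower in those pairs, and 1083 (60.2%) in all 3. Differences of 2-fold or more in the opposite direction numbered at most 3 for the higher genes and at most 19 for the lower genes in any pair. These counts set no minimum in the other pair. With a mean of at least 10 CPM there too, the shared higher genes numbered 1532, 1215 and 1349 in the A2AS control, WT heat and A2AS heat pairs. The shared lower genes then numbered 1260, 1396 and 1095. With the same minimum in each pair, 26% of genes were higher and 15.9% lower in the A2AS control pair, 16.8% higher and 18.4% lower in the WT heat pair, and 25.9% higher and 14.8% lower in the A2AS heat pair. The higher share exceeded the lower share in both pairs labelled A2AS at the deposited scaling, and this depends on the scaling. With median-ratio scaling of the 8 libraries, added after the data were seen, 15% of genes were higher and 21.8% lower in the A2AS control pair, 15% higher and 19.8% lower in the WT heat pair, 12% higher and 21.6% lower in the A2AS heat pair, and 16.5% higher and 21.5% lower in the WT control pair. The genes that recurred in all 4 pairs then numbered 911 higher and 1386 lower.

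**Figure D5:**
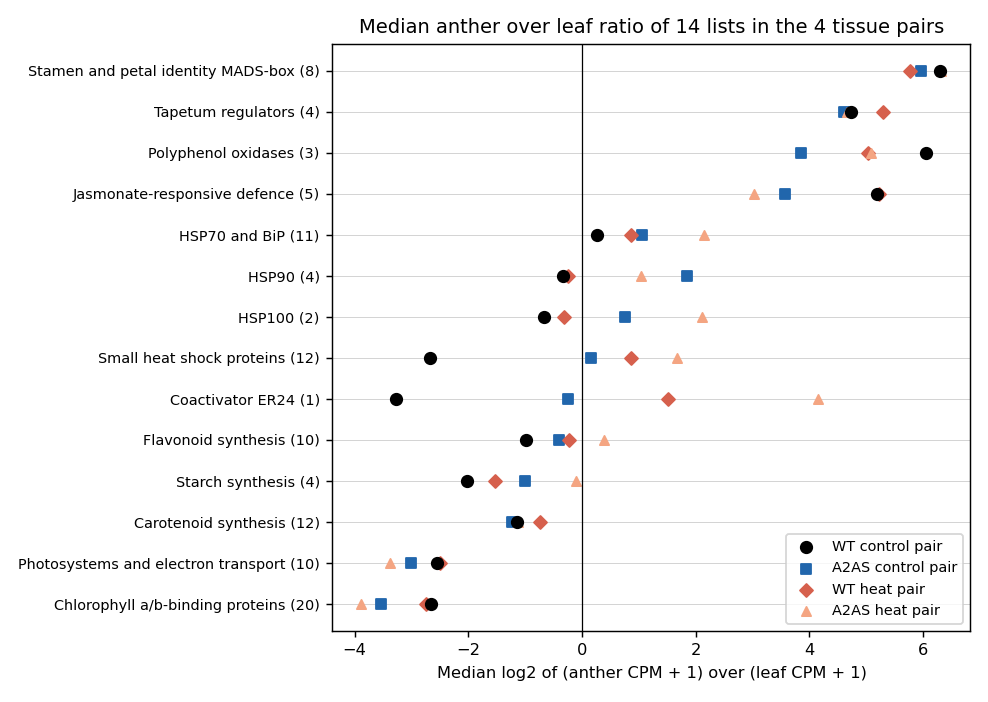
Median log2 of (anther CPM + 1) over (leaf CPM + 1) of 14 lists in the WT control pair (black circles), A2AS control pair (blue squares), WT heat pair (red diamonds) and A2AS heat pair (orange triangles), with the number of genes in brackets. The MADS-box list stays between 5.77 and 6.32, and the small heat shock proteins lie at -2.67 in the WT control pair and between 0.16 and 1.68 in the others.

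A limma fit over the 4 pairs, with the pair as a block, tested the 15220 genes that averaged 2 CPM or more over the 8 libraries. The WT control pair is one of the pairs fitted, and the residual is how the tissue difference varies over genotypes and treatments, not a spread between plants. It called 6335 genes higher in anther (41.6%) and 3597 lower (23.6%) at an adjusted p below 0.05. Without the WT control pair it called 5885 higher and 3191 lower of 15193 tested. The split depends on the scaling, since median-ratio scaling of the 8 libraries gave 4845 higher and 4731 lower and moved the median log2 difference from 0.30 to 0.04. Of the list genes tested, 8 of 8 MADS-box, 4 of 4 tapetum regulators and 3 of 3 polyphenol oxidases were called higher in anther, as were 4 of 5 defence genes. All 19 chlorophyll a/b-binding protein genes tested and all 10 genes of the photosystems were called lower.

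Whether the tissue difference itself changed with genotype or treatment was tested in the same way. In the genotype test the treatments are the only repeats, so changes of the tissue difference with heat count as error. In the treatment test the genotypes are the only repeats, so changes with genotype count as error. Few or no calls therefore do not show that the tissue difference stayed the same. Limma called 0 genes for a larger ratio of anther over leaf in A2AS than in WT (0%) and 0 for a smaller one (0%), with 2929 genes at an unadjusted p below 0.05 and a smallest adjusted p of 0.0984. With the tissue-and-treatment pair as the block, an alternative added after the data were seen, it called 306 and 158. For heat against control it called 1 gene with a larger ratio (0.00657%) and 2 with a smaller one (0.0131%). With the tissue-and-genotype pair as the block, likewise added, the counts were 55 and 90. No listed gene was among the calls without the added blocks.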

How the data were processed

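RNA of young leaves and anthers was sequenced at the last 500 bases of the 3′ end after poly(A) selection, per the labels' protocols. The authors deposited CPM values per library, called TPM in the tables, with no length term. The submitters' processing notes name FastQC. No aligner, counting rule, strand setting, build or annotation is given in the sources used here. Whether reads of a gene and its antisense partner were kept apart is therefore not known. The reads of a library were taken as 1000000 over the commonest value above 0, and on this scale 77.6% to 83.9% of values above 0 came out whole (tolerance 0.001). As this is under 95%, counts were not treated as recovered and no count test was used. In WT control anther 3 reads are 0.242 CPM, and in leaf 0.260 CPM.

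Log2 ratios used a pseudocount of 1, a pair mean of at least 10 CPM for counts over genes and a 2-fold threshold. Exact Clopper-Pearson 95% intervals came from values rounded to whole reads, and they cover counting error only. Tests over the 8 libraries used limma 3.58.1 in R 4.3.3 on log2(CPM + 1), with a mean of at least 2 CPM, a variance trend, the genotype-and-treatment pair as a block and Benjamini-Hochberg adjustment at 0.05. Each group had 1 library, so p-values measure variation between conditions. Both steps were also run on simulated data that held no genotype or heat effects. The real residual holds such effects, so the simulations do not show how the fit performs on these libraries.

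The comparison, the 29 lists (207 genes, 204 measured) and the tests were chosen with earlier results of these data known. List names rest on published tomato nomenclature, as none of the 41476 rows of the RefSeq gene table (assembly SLM_r2.1) holds an ID of the files. RefSeq has 112 of the names, each on the chromosome of its ID. Several names were settled with that table and the values in view, so this is not an independent check. Names such as MS10, MS32, TDF1, AMS, HsfA2, PI-II, JAZ1 and PRK have no match there. The rule for naming genes takes up to 4 members of a list with the widest ratios at the minimum, all members of lists of 4 or fewer, HsfA2 and the 2 highest and 2 lowest genes in no list, and other members were named after their values were seen. Alternatives were other pseudocounts, minimums, scalings and thresholds, leaving out each pair, limma without the trend or the block, and other blocks.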

Additional observations from a re-analysis of the deposited data

Results flagged for a closer look

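Of the 204 listed genes measured, 17 are flagged here. Their anther over leaf ratio had one sign in both pairs of a condition or genotype and the other sign in both pairs of its counterpart. No size minimum was applied, so small ratios are among them. The share of all genes with this pattern was not counted, so it cannot be said whether 17 of 204 is many. Values are log2 ratios in the WT control, A2AS control, WT heat and A2AS heat pairs, in that order. Limma tested 14 of the 17 for a tissue difference that differs between genotypes or treatments and called none. The error of each test holds changes with the other factor. With the blocks added after the data were seen, limma called 2 of the 14 for genotype and 0 for treatment. Over all 15220 genes tested, those blocks gave 306 larger and 158 smaller ratios for genotype, and 55 larger and 90 smaller for treatment. HsfB2b, GA20ox4 and GA20ox2 were below the limma minimum, so their difference was not tested.

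Of these, 9 differed in sign between the heat pairs and the control pairs. HsfA2 (Solyc08g062960) had -1.95, -0.64, 0.04 and 3.44. ER24 (Solyc01g104740) had -3.27, -0.25, 1.50 and 4.15. HsfA7 (Solyc09g065660) had -0.21, -0.17, 1.78 and 1.42, and HsfB2b (Solyc08g080540) had -0.37, -0.16, 2.23 and 0.91. PDS (Solyc03g123760), phytoene desaturase, had 0.37, 0.48, -0.59 and -0.24, and SLJAZ3 (Solyc03g122190), a JAZ repressor, had 0.30, 0.28, -0.73 and -1.19. The gibberellin oxidase gene GA20ox4 (Solyc01g093980) had 0.19, 0.14, -0.10 and -0.21, from at most 5 reads in any library. The antioxidant genes APX1 (Solyc06g005160) and SODCP.2 (Solyc11g066390) had -0.79, -0.06, 0.0024 and 0.24, and 0.11, 0.25, -0.36 and -1.18.

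The other 8 differed in sign between the A2AS pairs and the WT pairs at the deposited scaling. Among chaperones, HSP90 (Solyc06g036290) had -0.60, 2.73, -0.10 and 1.63, Hsp90-1 (Solyc12g015880) had -0.39, 0.95, -0.38 and 0.46, Hsc70.2 (Solyc10g086410) had -0.86, 1.24, -0.0044 and 2.21 and the HSP70 gene Solyc11g066060 had -0.77, 0.28, -0.78 and 0.89. Among heat stress factors, HSFA1A (Solyc08g005170) had -0.25, 0.42, -0.25 and 0.40, HsfA4c (Solyc02g072000) had -0.70, 0.34, -0.08 and 0.44 and HsfA5 (Solyc12g098520) had -0.20, 0.55, -0.39 and 0.53. GA20ox2 (Solyc06g035530) had 0.82, -0.62, 0.62 and -0.50. The median tissue ratio over all genes tested was itself 0.28 higher in A2AS than in WT, and -0.02 with median-ratio scaling. Over genes at the minimum, the A2AS control and A2AS heat medians were 0.47 and 0.51 as deposited, and 0.03 and 0.02 with that scaling. Ratios of HSFA1A, HsfA4c, Hsp90-1 and Solyc11g066060 lay below the deposited median in an A2AS pair. The sign of these and of other small ratios can therefore depend on the scaling. The flags were not recounted with it.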

How the results depend on the processing

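Every comparison rests on 1 library a group, so no result of the pair has a replicate check, and depth limits genes near 3 reads. No groups share more than 1 replicate number, so there is no fit by replicate number, and limma instead paired anther and leaf by genotype and treatment. Without that block limma called 6711 higher and 3752 lower. Counts of 1782 higher and 1799 lower genes became 3996 and 3133 with no minimum, 619 and 650 with a pair mean of at least 50, and 848 and 875 at 4-fold. Pseudocount 5 gave 1537 and 1589, median-ratio scaling 1488 and 2029, and a total without the 100 most abundant genes 1546 and 1980. Of the listed genes, 40 were higher and 88 lower, and the alternatives gave 32 to 38 and 79 to 93. The counts in all 4 pairs, 1195 and 1083, became 385 and 450 at a mean of at least 50 and 911 and 1386 with median-ratio scaling of the 8 libraries, alternatives added after the data were seen. That scaling, likewise added, changed the higher genes of the A2AS control pair to 1399 (2381 as deposited) and of the A2AS heat pair to 1112 (2418 as deposited). The limma counts of 6335 and 3597 became 4036 and 2346 with a mean of at least 10, and 4845 and 4731 with median-ratio scaling. For the tissue difference between genotypes, 0 and 0 became 306 and 158 with the tissue-and-treatment block. The counts stayed at 0 under each of the other 9 alternatives, with 1238 to 3685 genes at an unadjusted p below 0.05. For the treatments, 1 and 2 became 5 and 8 with pseudocount 5, 0 and 0 with no minimum and with median-ratio scaling, 0 and 2 with a mean of at least 10, 0 and 1 without the trend, and 55 and 90 with the tissue-and-genotype block. Leaving out the WT control pair gave 17 and 43, the A2AS control pair 55 and 127, the WT heat pair 168 and 192, and the A2AS heat pair 78 and 345. The cause was not tested for any of these. Of the genes named by the rule, 8 changed the sign of a limma tissue difference that had not passed. HSFA1A went to -0.19 with median-ratio scaling, -0.035 without the A2AS control pair and -0.027 without the A2AS heat pair. HsfA2 went to -0.0014 with median-ratio scaling and -0.85 without the A2AS heat pair, Hsp90-1 (Solyc12g015880) to -0.12 with median-ratio scaling and -0.10 without the A2AS control pair, and Solyc09g015020 to 0.11 with pseudocount 5 and 1.11 without the WT control pair, where it passed (limma, adjusted p = 0.0136). Without the WT control pair, Solyc03g026020 (HsfB2a) went to 0.012 and Solyc06g076560 to 0.54, and without the A2AS heat pair ER24 went to -0.67 and Solyc03g117630 to -0.23. Of the genes named by the rule, 7 lost a call in some alternative, 23 times in all, and 11 gained one, 14 times in all, of which 3 (ER24, Solyc03g117630 and Solyc09g015020) are among the 8 that changed sign. List medians changed at 2 decimals in 100 of 115 alternatives.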
